A study of Mus musculus with 27 samples.

Results

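Gene expression was compared between the whole brains of AKR/J and C57BL/6J fetuses on gestational day 12 (d12), across all genes of the read count table. The comparison holds 6 of the 27 libraries of the series, 3 of each strain, chosen by the strain and the day in their labels. Of 55416 genes in the table, 35765 had a read in these libraries and 19320 had enough reads to be tested. Transcripts of blood, yolk sac, trophoblast and decidua were kept apart from brain genes in 2 ways. The first was 5 lists of marker genes, and the second was a rule that took genes under 0.5 CPM (reads of a gene in 1000000 reads of the library) in at least 20 of the 21 libraries outside the comparison.

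The study followed fetal brain development in mouse strains that differ in lifespan, and AKR/J against C57BL/6J compares a short-lived with a long-lived inbred strain. AKR/J is known for its high rate of leukemia, and C57BL/6J is the strain of the reference genome, GRCm39, to which the reads of both strains were mapped. Neither group carried a transgene, an engineered mutation or a treatment. Both groups were female fetuses of dams of about 8 weeks, with day 1 of pregnancy set at the vaginal plug. The labels do not say whether the 3 fetuses of a strain came from separate litters. A congenic strain that lacks caveolin 1 (Cav1-null) and the later days, d15 and d17, are used here only for reference. Messenger RNA was selected by its poly-A tail, and 28340089 to 35743241 reads were counted on genes in each of the 6 libraries.

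At this age the telencephalon, diencephalon, midbrain and hindbrain are already distinct, most cells of the neural tube are dividing radial glia, and the earliest neurons are leaving the ventricular zone. Newborn neurons switch on cytoskeletal genes such as Tubb3 and Dcx before the genes of the synapse, and astrocytes and oligodendrocytes form later. The fetal circulation is filled with nucleated red cells of the yolk sac, which carry embryonic globins, before red cells of the fetal liver with adult globins replace them. Yolk sac endoderm makes alpha-fetoprotein and apolipoproteins, trophoblast makes placental prolactins, and the decidua of the uterus makes prolactin 8a2 and houses natural killer cells rich in granzymes.

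Several libraries stood apart before any gene was compared. AKR/J replicate 1 held most of the decidua transcripts, and AKR/J replicate 3 held the most globin and nearly lacked genes of the telencephalon. C57BL/6J replicate 3 held trophoblast transcripts and lay nearer to AKR/J than the other C57BL/6J libraries did. Its levels correlated at 0.978 and 0.975 with C57BL/6J replicates 1 and 2, on the log2 scale over the tested genes. With AKR/J replicates 1 to 3 they correlated at 0.922, 0.971 and 0.937. C57BL/6J replicates 1 and 2 correlated at 0.957 and 0.937 with AKR/J replicate 2. AKR/J replicate 2 thus lay nearer to C57BL/6J replicate 3 than to AKR/J replicates 1 and 3, with which it correlated at 0.957 and 0.964. The composition of the libraries differed as well. Genes of cytoplasmic ribosomal proteins took 17.6%, 7.36% and 14.8% of the reads of AKR/J replicates 1 to 3, against 2.99%, 2.23% and 3.67% in C57BL/6J. Genes of mitochondrial DNA took 9.59%, 3.98% and 6.66% against 1.57%, 1.15% and 1.79%. Fold changes moved with the length and the GC content of genes. The median log2 fold change was 0.66 in the fifth of genes with the smallest total exon length and fell to -0.29 in the largest. It was 0.6 in the fifth with the lowest GC content and -0.41 in the highest. With the length and GC trends removed from each library, 3482 genes were called in the comparison described next, in place of 5529. The part of the other differences between libraries in the results was not tested.

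Between the strains, 5529 of the 19320 genes differed on d12, which is 28.6% called by edgeR's quasi-likelihood test, with the p adjusted by Benjamini and Hochberg's method and a threshold of 0.05. Of these, 2797 were higher in AKR/J (14.5%) and 2732 were lower (14.1%). The median log2 fold change of all tested genes was 0.02, and it was -0.38 when libraries were scaled by their size alone, where 30.2% of the called genes were higher in place of 50.6%. The number of calls rested on single libraries. It was 25 without C57BL/6J replicate 2, where 5976 genes still had an unadjusted p under 0.05, and 1369 without AKR/J replicate 1, 1529 without AKR/J replicate 3 and 1630 without C57BL/6J replicate 1. Of the 2797 higher genes, 787 kept their call without each of the other 5 libraries and 15 without any of the 6. Of the 2732 lower genes, 343 and 7 did so. The calls on list members given below were lost without C57BL/6J replicate 2, except that of the globin gene Hba-a2.

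The sets kept apart held 438 of the tested genes. The 5 lists had 55 tested members, of which 35 were higher and 2 lower in AKR/J, with a median log2 fold change of 3.58, counts that hold members tested only through the AKR/J libraries. They took 7.14%, 3.63% and 13.7% of the reads in AKR/J replicates 1 to 3, and 0.199%, 0.183% and 0.506% in C57BL/6J. Outside both sets, 2606 of 18882 genes were higher and 2730 lower, which is 28.3% of them and close to the share over all genes. The sets kept apart held 191 of the higher and 2 of the lower calls.

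Globin transcripts were higher in AKR/J. The 10 globin genes together took 6.87%, 3.53% and 13.6% of the reads in AKR/J and 0.191%, 0.175% and 0.47% in C57BL/6J. Of 9 tested globin genes, 8 were higher and 1 was lower in AKR/J, and the tenth, Hbq1a, had too few reads. In these bulk samples, fewer cells of a type and less RNA per cell cannot be told apart. The plot of read shares shows these lists by library.

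**Figure D1:**
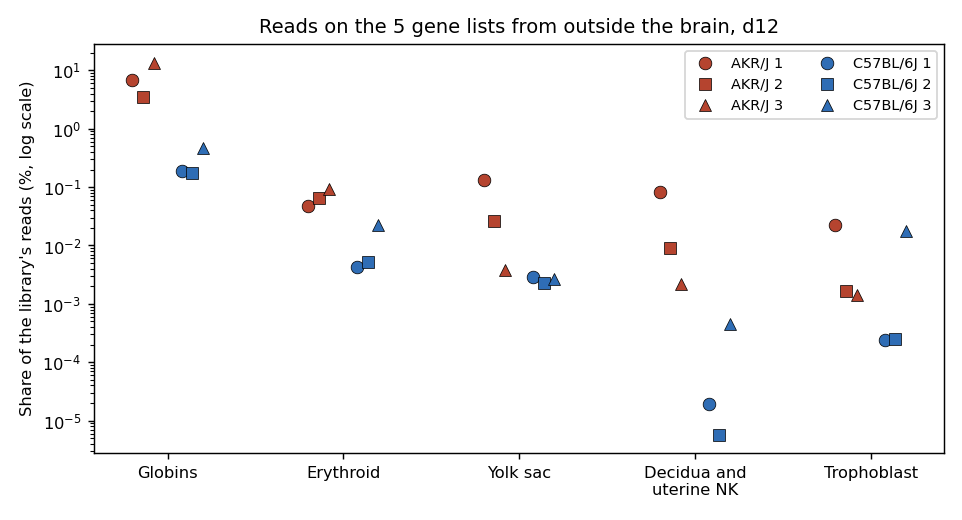
Each point is the share of a library's reads (percent, log scale) on 1 of the 5 lists of genes from outside the brain, for the 3 AKR/J (red) and 3 C57BL/6J (blue) libraries of d12, with the replicate given by the marker shape. Globins took 3.53% to 13.6% of the reads in AKR/J and 0.175% to 0.47% in C57BL/6J, and C57BL/6J replicate 3 lay within the AKR/J range for trophoblast only.

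Hbb-y, the embryonic beta-like globin (GRCm39 chr7:103500956-103502423, minus strand), was at 77760, 24310 and 152100 CPM in AKR/J replicates 1 to 3 and at 966, 746 and 2533 CPM in C57BL/6J, with libraries scaled by the TMM method here and below. All 3 AKR/J libraries were above all 3 C57BL/6J libraries, an order without overlap that 47.0% of the tested genes showed, 22.9% with AKR/J higher and 24.1% with AKR/J lower. The log2 fold change was 5.90 ± 1.06 (SE, n = 3 per strain, edgeR adjusted p = 0.0115). Hbb-bh1, a second embryonic beta-like globin of the same cluster, was at 7519, 1435 and 10580 CPM against 6.97, 3.75 and 269.9 CPM. Its highest C57BL/6J value, in replicate 3, was still below the lowest of AKR/J, and the log2 fold change was 6.12 ± 1.71 (edgeR adjusted p = 0.0309). Hba-x, the embryonic alpha-like globin on chromosome 11, was at 2095, 1614 and 4923 CPM against 75.6, 99.1 and 536 CPM.

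The adult globins differed as well, though not all in 1 direction. Hbb-bs, an adult beta globin, was at 2101, 675 and 3957 CPM in AKR/J and at 169, 221 and 45.6 CPM in C57BL/6J (log2 fold change 3.95 ± 0.78). Its close copy Hbb-bt had a log2 fold change of 2.83 ± 0.58. The adult alpha globin Hba-a1 was at 3354, 2448 and 8809 CPM against 202, 319 and 259 CPM, while its close copy Hba-a2 was at 3.73, 1.44 and 5.62 CPM against 129, 77.2 and 128 CPM. The pair of alpha globin genes thus went in opposite directions, with log2 fold changes of 4.23 ± 0.58 and -4.97 ± 0.49 (edgeR adjusted p = 0.0115 and 0.00544). Hba-a1 and Hba-a2 are nearly identical, and how reads that match both were counted is not given in the sources used here, so that the split between them is uncertain. Hba-a2 kept its call in all 6 fits that left out a library, and was lower in AKR/J on d15 and d17 as well, with log2 fold changes of -8.24 and -9.10.

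Genes of red cell formation differed with the globins. Of 16 tested erythroid genes, 12 were higher and none lower in AKR/J, against 14.5% and 14.1% of all tested genes, with a median log2 fold change of 3.23. In all 16 the AKR/J libraries lay above the C57BL/6J libraries, as they did in 22.9% of all tested genes. Alas2, the enzyme that starts heme synthesis in red cells, was at 201, 105 and 358 CPM against 11.6, 19.0 and 27.7 CPM (log2 fold change 3.51 ± 0.49, edgeR adjusted p = 0.0115). The transcription factors Gata1 and Klf1, which drive red cell genes, had log2 fold changes of 3.58 ± 0.75 and 3.16 ± 0.62. Higher calls numbered 4 to 8 for globins and 5 to 16 for erythroid genes without each of the other 5 libraries, and 0 in both lists without C57BL/6J replicate 2.

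GATA1 binds short GATA motifs and is the main activator of globin and heme genes in red cells. The letters GTTAAT belong to a motif known from promoters of liver and endoderm genes. The promoters of 1 member of each of 3 groups, globins, heme synthesis and yolk sac endoderm, are shown to place these motifs beside genes whose levels differed widely. The letters are from RefSeq in GRCm38.p6, 250 bases before to 50 after the start, at chr7:103853158-103853457 (minus strand) for Hbb-y, chrX:150547167-150547466 (plus strand) for Alas2 and chr5:90490464-90490763 (plus strand) for Afp. Capitals mark AGATAA or TGATAA (for Hbb-y and Alas2) or GTTAAT (for Afp), searched on both strands.
Hbb-y: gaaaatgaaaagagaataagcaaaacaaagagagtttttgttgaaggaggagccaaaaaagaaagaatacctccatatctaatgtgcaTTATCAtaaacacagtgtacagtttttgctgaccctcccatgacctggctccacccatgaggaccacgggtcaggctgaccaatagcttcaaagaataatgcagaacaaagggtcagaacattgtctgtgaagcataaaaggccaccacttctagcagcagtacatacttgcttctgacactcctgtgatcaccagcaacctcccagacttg
Alas2: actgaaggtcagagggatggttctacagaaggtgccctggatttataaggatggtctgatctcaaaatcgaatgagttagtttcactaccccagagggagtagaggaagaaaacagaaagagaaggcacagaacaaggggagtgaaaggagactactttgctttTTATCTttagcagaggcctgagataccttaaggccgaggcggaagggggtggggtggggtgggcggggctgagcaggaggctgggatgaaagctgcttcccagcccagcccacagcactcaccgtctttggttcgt
Afp: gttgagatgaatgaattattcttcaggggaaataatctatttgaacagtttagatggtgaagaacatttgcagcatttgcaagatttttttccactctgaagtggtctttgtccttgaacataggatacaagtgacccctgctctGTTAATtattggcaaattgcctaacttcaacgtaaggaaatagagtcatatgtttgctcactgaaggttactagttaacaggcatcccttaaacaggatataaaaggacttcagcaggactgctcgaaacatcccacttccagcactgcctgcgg
Such a GATA match lay in the promoters of 6 of 9 globin genes and 11 of 13 erythroid genes found in the table, against 21% of 27025 genes and 18.6% of 32851 promoters in all. The GTTAAT match lay in 6 of 17 yolk sac genes, against 8.24% of all genes and 7.10% of all promoters. Each match is a match of letters and not a measured binding site.

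Yolk sac endoderm transcripts were carried mainly by AKR/J replicate 1. Of 20 genes, 12 were tested, 8 were higher and none lower in AKR/J, with a median log2 fold change of 6.62. Between 7 and 9 members had no read in each C57BL/6J library, and members near 0 there could be tested only through reads in AKR/J, so that these values are a description. Their share of reads was 0.133%, 0.0267% and 0.00385% in AKR/J replicates 1 to 3 and 0.00225% to 0.00283% in C57BL/6J. Afp, alpha-fetoprotein (chr5:90638584-90656766, plus strand), was at 962, 126 and 14.6 CPM against 1.49, 0.0514 and 0.431 CPM (log2 fold change 9.13 ± 1.73, edgeR adjusted p = 0.0118). AKR/J replicate 1 stood far above the other AKR/J libraries, and these still exceeded all C57BL/6J libraries. Apob, the large apolipoprotein of yolk sac lipid particles, was at 248, 19.6 and 1.87 CPM against 0.271, 0.103 and 0.431 CPM. Apoa4 had 264, 61 and 10 reads in AKR/J and no read in C57BL/6J, and was at least 156-fold higher against 3 reads over the 3 C57BL/6J libraries. Alb, Hnf4a and Gata4, which mark liver and endoderm too, had too few reads to be tested. Without each of the other 5 libraries, 5 to 14 yolk sac genes were higher, and without C57BL/6J replicate 2 none was. The median was 4.02 without AKR/J replicate 1.

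Decidua transcripts were also highest in AKR/J replicate 1. Prl8a2, the decidual prolactin (chr13:27529645-27538199, plus strand), was at 542, 67.0 and 22.0 CPM in AKR/J and at 0.0542, 0 and 2.05 CPM in C57BL/6J. Gzmf, a granzyme of uterine natural killer cells, was at 131, 1.84 and 2.11 CPM against 0, 0 and 0.162 CPM. AKR/J replicate 1 held nearly all of the granzyme reads of the 6 libraries. All 5 tested genes of the list, Prl8a2, Gzmc, Gzmd, Gzmf and Gzmg, were higher in AKR/J (median log2 fold change 8.23). They had enough reads to be tested only through the AKR/J libraries, so that the count and the median are a description and not support. Prl3c1, Gzme and Prf1 had too few reads to be tested. Without AKR/J replicate 1, 2 decidua genes were called, and the median was 4.18.

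Trophoblast genes did not separate the strains in this way. Of 43 genes, 13 were tested, 2 were higher (Prl2c2 and Prl7a1) and 1 was lower (Syna), close to the 28.6% called over all tested genes. Tpbpa, a gene of spongiotrophoblast, was at 76.3, 0.614 and 2.34 CPM in AKR/J and at 0.163, 0.103 and 29.99 CPM in C57BL/6J. AKR/J replicate 1 and C57BL/6J replicate 3 were the high libraries, and the groups overlapped (log2 fold change 1.39 ± 1.93, edgeR adjusted p = 0.614). Prl3b1, placental lactogen II, had the same pattern, at 50.3, 2.37 and 5.71 CPM against 0.0542, 0.103 and 21 CPM. Without C57BL/6J replicate 3, 11 of 15 tested trophoblast genes were higher, with a median of 7.57 in place of 1.81, and without AKR/J replicate 1 none of 13 was, with a median of -0.32. With the length and GC trends removed, none of 13 was higher and 1 was lower.

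Genes of surface epithelium were higher in AKR/J too. Of 14 tested, 9 were higher and none lower, with a median log2 fold change of 2.30, where 14.5% of all tested genes were higher and 14.1% lower. The same shares apply to the connective tissue, eye and muscle genes that follow. Krt8, a keratin of simple epithelia, was at 44.0, 14.4 and 8.57 CPM in AKR/J against 0.678, 1.16 and 4.25 CPM (log2 fold change 3.46 ± 0.81, edgeR adjusted p = 0.0183). Epcam and Cdh1, the epithelial adhesion molecules, had log2 fold changes of 2.21 ± 0.60 and 2.04 ± 0.60. The keratins of the skin's basal layer, Krt5 and Krt14, did not pass the test, with log2 fold changes of 0.79 and 1.45. Krt8, Krt18, Krt19, Epcam and Cdh1 are epithelial genes that yolk sac and trophoblast also express. Connective tissue and cartilage had 1 higher gene of 16 tested, Lum, and of 14 eye and pigment genes 6 were tested and 1, the lens crystallin Cryba1, was higher. Of 7 muscle genes none was called by edgeR's quasi-likelihood test, and 2 had an unadjusted p under 0.05. Without C57BL/6J replicate 3, 8 of 16 genes of connective tissue were higher. The surface epithelium list had 2 higher genes without AKR/J replicate 1 and 1 without C57BL/6J replicate 1.

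A further 383 tested genes outside the lists were low in the other 21 libraries. Of these, 156 were higher in AKR/J and none was lower by edgeR's quasi-likelihood test, and 221 had an unadjusted p under 0.05. Since such genes could be tested only through reads in the d12 libraries, the counts are a description. S100g, a calcium-binding protein of uterus and gut, was at 199, 9.61 and 3.61 CPM against 0.163, 0.0514 and 0.377 CPM. Erv3, an endogenous retrovirus gene on chromosome 2, was at 139, 34.4 and 11.5 CPM against 0.217, 0.0514 and 0.377 CPM. Both were highest in AKR/J replicate 1. Cyp4b1-ps2 had another order, with 44.7, 8.999 and 79.2 CPM against 0.217, 0.205 and 0.323 CPM and its highest value in AKR/J replicate 3.

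Genes of neurons were lower in AKR/J. Of 25 genes of neuronal differentiation, 13 were lower and none higher, with a median log2 fold change of -1.13. Their summed share of reads was 0.315%, 0.525% and 0.378% in AKR/J replicates 1 to 3 and 1.20%, 1.57% and 0.885% in C57BL/6J. Of 35 synapse genes, 27 were lower and none higher, with a median of -1.30. Over all genes, 14.1% were called lower and the median was 0.02. In both lists C57BL/6J replicate 3 had the lowest share of reads of its strain and still lay above all AKR/J libraries.

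Mapt, the microtubule protein tau of axons (chr11:104122024-104222946, plus strand), was at 53.9, 81.5 and 67.5 CPM in AKR/J and at 493, 755 and 199 CPM in C57BL/6J. The groups did not overlap, and the log2 fold change was -2.83 ± 0.46 (edgeR adjusted p = 0.0115), a 7.13-fold lower level. Ina, the neuronal intermediate filament internexin, was at 67.9, 68.9 and 93.2 CPM against 374, 644 and 238 CPM (-2.45 ± 0.37). Dcx, the microtubule protein doublecortin of migrating neurons, was at 301, 385 and 364 CPM against 1087, 1207 and 801 CPM (-1.56 ± 0.28, edgeR adjusted p = 0.0115). Tubb3, the neuronal tubulin, was at 324, 321 and 406 CPM against 1076, 1422 and 745 CPM (-1.63 ± 0.31). The AKR/J libraries were close together in these genes, while the C57BL/6J libraries ranged more widely.

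Not every gene of young neurons followed. Stmn2 and Stmn3, the neuronal stathmins that bind tubulin, had log2 fold changes of 0.17 and -0.06, and Elavl4, a neuronal RNA-binding protein, one of -0.09, each with an adjusted p above 0.7. Nhlh2, a transcription factor of newborn neurons, was at 0.51. The lower members included the paralog Elavl3 (-1.23), the adhesion molecules L1cam (-1.87) and Nrcam (-1.13), the kinesin Kif5c (-1.61) and the neuronal transcription factor Myt1l (-1.99). The plot of neuronal and progenitor genes shows the order of libraries.

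**Figure D2:**
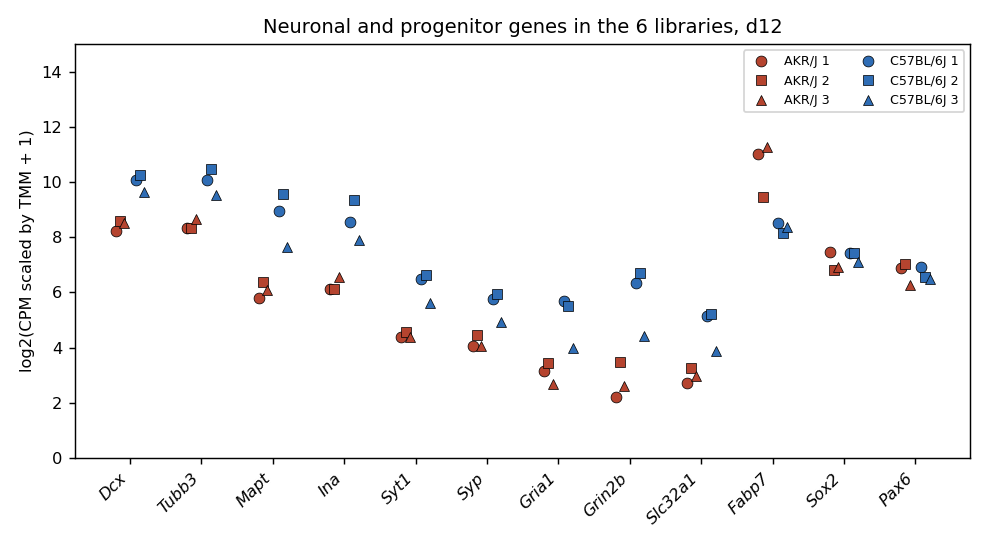
Points are log2(CPM + 1) of 12 genes in each of the 6 libraries of d12, AKR/J in red and C57BL/6J in blue, with the replicate given by the marker shape. Dcx, Tubb3, Mapt, Ina and the synapse genes lie lower in AKR/J without overlap, C57BL/6J replicate 3 is the nearest C57BL/6J library, Fabp7 lies higher in AKR/J, and Sox2 and Pax6 overlap.

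The lowest log2 fold changes in the synapse list were those of the glutamate receptors Grm5 and Grin2b. Grin2b, a subunit of the NMDA glutamate receptor (chr6:135690231-136150548, minus strand), was at 3.58, 10.01 and 5.06 CPM against 79.8, 103 and 20.2 CPM (log2 fold change -3.44 ± 0.62, edgeR adjusted p = 0.0115). Grm5, a metabotropic glutamate receptor, was at 0.838, 0.614 and 0.656 CPM against 11.7, 15.7 and 1.89 CPM (-3.79 ± 0.72). In both genes C57BL/6J replicate 3 lay between the AKR/J libraries and the other C57BL/6J libraries. Gria1, an AMPA receptor subunit, had a log2 fold change of -2.22 ± 0.45. Syt1, the calcium sensor of vesicle release, was at 20.1, 22.8 and 20.04 CPM against 88.3, 97.0 and 47.5 CPM (-1.89 ± 0.27), and Syp, synaptophysin, had -1.45 ± 0.29. Without each of the other 5 libraries, 6 to 16 genes of neuronal differentiation and 5 to 30 of the synapse were lower, and without C57BL/6J replicate 2 none was, while the medians stayed between -1.40 and -0.86 and between -1.57 and -0.98. With the trends of length and GC content removed from each library, 15 and 22 genes were lower, with medians of -0.82 and -1.12.

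Transcription factors of cortical projection neurons and genes of inhibitory neurons had negative medians as well, of -1.0 in both lists, with 8 of 19 and 3 of 20 genes lower and none higher. The count of inhibitory genes was close to the 14.1% of all tested genes that were lower. Neurod2, a factor of maturing excitatory neurons, was at 12.3, 18.4 and 0.562 CPM against 124, 125 and 20.9 CPM (log2 fold change -3.10 ± 1.00, edgeR adjusted p = 0.0479). Its AKR/J replicate 3 value was far below the other libraries. Bcl11b, a factor of subcerebral projection neurons, was at 37.2, 43.3 and 19.8 CPM against 163, 174 and 42.8 CPM, and the groups overlapped, since C57BL/6J replicate 3 lay under AKR/J replicate 2. Slc32a1, the vesicular transporter for GABA, was at 5.596, 8.57 and 6.79 CPM against 34.1, 36.3 and 13.8 CPM (-2.0 ± 0.38, edgeR adjusted p = 0.0117). Gad2, an enzyme of GABA synthesis, had -0.95 ± 0.26. Without each of the other 5 libraries, 0 to 10 cortical and 1 to 8 inhibitory genes were lower, and without C57BL/6J replicate 2 none was. With the length and GC trends removed, 2 of the 19 cortical genes were lower, with a median of -0.73.

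Of 20 glial genes, 6 were lower and none higher in AKR/J, against 14.1% and 14.5% of all tested genes, with a median of -1.19. Nfix, a nuclear factor of the switch to gliogenesis, was at 18.7, 27.5 and 9.74 CPM against 99.0, 221.6 and 37.0 CPM (log2 fold change -2.67 ± 0.62, edgeR adjusted p = 0.0179). Aldoc, the aldolase of radial glia and astrocytes, was at 4.34, 3.72 and 2.11 CPM against 31.3, 57.1 and 6.73 CPM (-3.22 ± 0.68). In both genes C57BL/6J replicate 2 was highest and replicate 3 lowest in its group. Olig1, a factor of oligodendrocyte precursors, had a log2 fold change of -2.49 ± 0.58, and Aldh1l1, an astrocyte enzyme, had -2.41. Gfap, Sox10 and Cspg4 had -1.51, -1.44 and -1.20 and did not pass the test. Without single libraries, 0 to 10 of these genes were lower.

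Of 20 genes of radial glia, 1 was higher and 4 were lower, with a median of -0.25, and the number called was close to the 28.6% over all tested genes. Without AKR/J replicate 1 or 3, 1 was lower. Sox2, the transcription factor of neural stem cells, was at 174, 111 and 119 CPM against 171, 173 and 136 CPM (log2 fold change -0.25 ± 0.23, edgeR adjusted p = 0.439), and Pax6, a factor of dorsal radial glia, had 0.11 ± 0.24 (edgeR adjusted p = 0.748). Both strains overlapped in these genes. The related factors Sox1 and Sox3 were lower, with -1.01 ± 0.27 and -1.37 ± 0.30, as was the glutamate transporter Slc1a3, with -1.39 ± 0.27. Fabp7, the lipid-binding protein of radial glia, was at 2051, 703 and 2454 CPM against 364, 283 and 329 CPM. It was the only higher member, without overlap and with a log2 fold change of 2.42 ± 0.46 (edgeR adjusted p = 0.012).

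Of 14 tested genes of neuronal precursors, 2 were higher and 3 lower in AKR/J (median -0.33), against 14.5% and 14.1% of all tested genes. None was higher without AKR/J replicate 1, AKR/J replicate 3 or C57BL/6J replicate 1, under library sizes alone, or with the length and GC trends removed. Neurog2, the factor that starts excitatory neuron formation, was at 86.5, 66.2 and 67.2 CPM against 146, 164 and 105 CPM (log2 fold change -0.92 ± 0.23, edgeR adjusted p = 0.0211). Insm1, a factor of dividing neuronal precursors, had -1.39 ± 0.28. Neurod1 and Neurod4, factors that act downstream of Neurog genes, were higher, with 0.70 ± 0.20 and 1.40 ± 0.41. Neurod1 was at 68.5, 46.4 and 65.1 CPM against 35.3, 39.6 and 36.2 CPM.

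Cell cycle genes had 7 higher and 4 lower members of 30, against 14.5% and 14.1% of all tested genes, with a median of -0.19. Mki67, the general marker of dividing cells, had a log2 fold change of 0.04 (edgeR adjusted p = 0.924). The higher members included Ccne2, a cyclin of the entry into S phase, at 149, 62.0 and 104 CPM against 24.4, 13.5 and 30.3 CPM (2.20 ± 0.38), and Gins2, a subunit of the replication helicase, with 1.72 ± 0.32. Mcm3, another helicase subunit, and Tpx2, a protein of the mitotic spindle, were lower, with -0.74 ± 0.21 and -0.66 ± 0.20. Counts in this list ran from 2 to 8 higher and 0 to 9 lower without each of the other 5 libraries, and under library sizes alone they were 2 and 6. Under RLE size factors they were 7 and 2, and under upper quartile factors 7 and 0. With the length and GC trends removed they were 5 and 1, and 2 genes of radial glia were lower. Of 12 genes that mark early developmental timing, 3 were higher and none lower (median 0.51), against 14.5% and 14.1% of all tested genes. None was higher without AKR/J replicate 1, AKR/J replicate 3 or C57BL/6J replicate 1, and 6 were without C57BL/6J replicate 3. Lin28b, the RNA-binding protein that blocks let-7, was at 74.5, 61.2 and 69.0 CPM against 35.7, 26.1 and 42.0 CPM (0.98 ± 0.22, edgeR adjusted p = 0.0155). Lin28a and Trim71 had 1.30 and 1.15 and did not pass the test, and under library sizes alone none of the 12 genes was higher and 2 were lower.

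**Figure D3:**
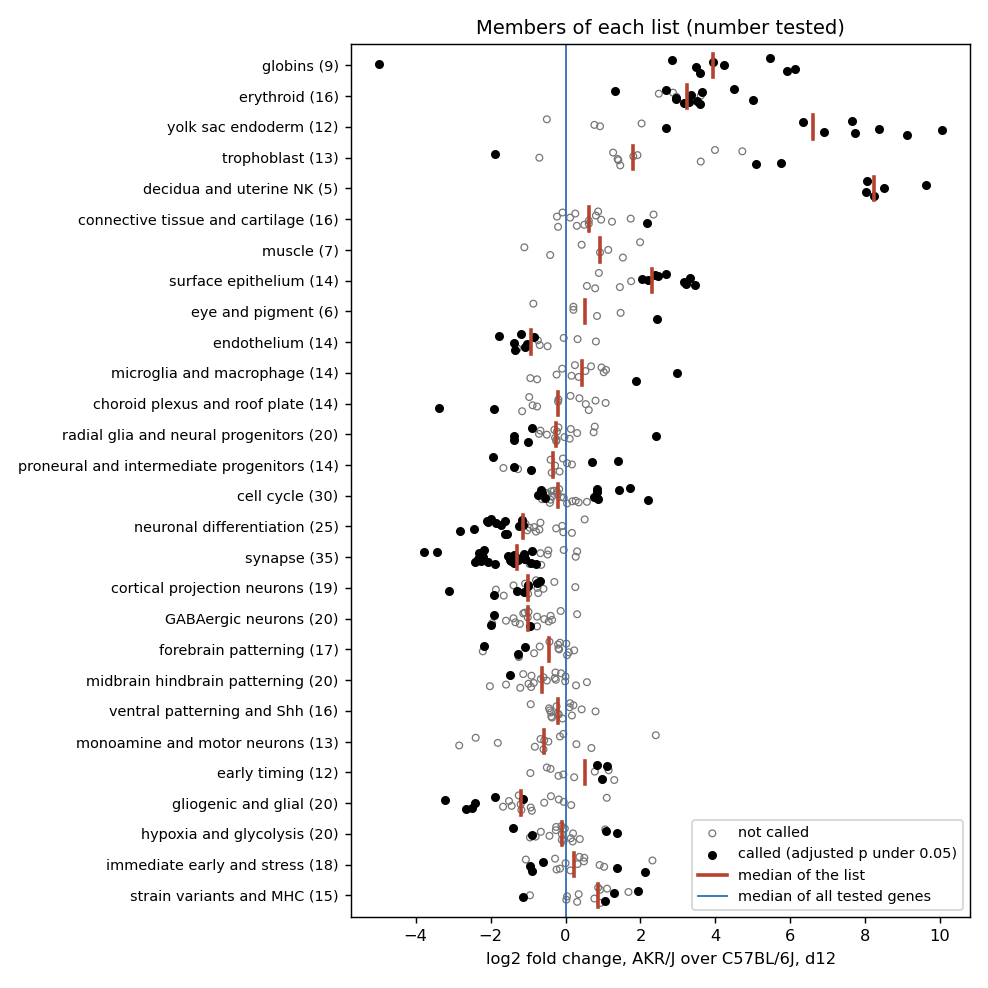
Each point is the log2 fold change (AKR/J over C57BL/6J, d12) of a tested member of a list, filled where its adjusted p was under 0.05, with the list's median as a red bar and the median of all tested genes, 0.02, as a blue line. The lists of blood, yolk sac and decidua lie to the right with medians of 3.23 to 8.23, and those of neurons, synapse and glia to the left with medians of -1.0 to -1.3.

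Genes of brain regions varied widely between libraries of the same strain. Tbr1, a factor of early cortical neurons, was at 46.1, 37.6 and 0 CPM in AKR/J and at 105, 128 and 31.0 CPM in C57BL/6J. AKR/J replicate 3 had no read of it, and the strains overlapped. Eomes, of cortical intermediate progenitors, was at 28.2, 23.2 and 0.375 CPM against 58.7, 84.1 and 21.8 CPM. Counted over genes of at least 3 CPM in the other 5 libraries, AKR/J replicate 3 had 23 genes under 15% of the lowest of them, among them Emx1, Fezf2, Dlx2, Lhx6, Neurod6 and Tbr1. The other libraries had 0 to 11 such genes. Sox2 and Pax6 were present in all 6 libraries, at 76.0 CPM or more.

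**Figure D4:**
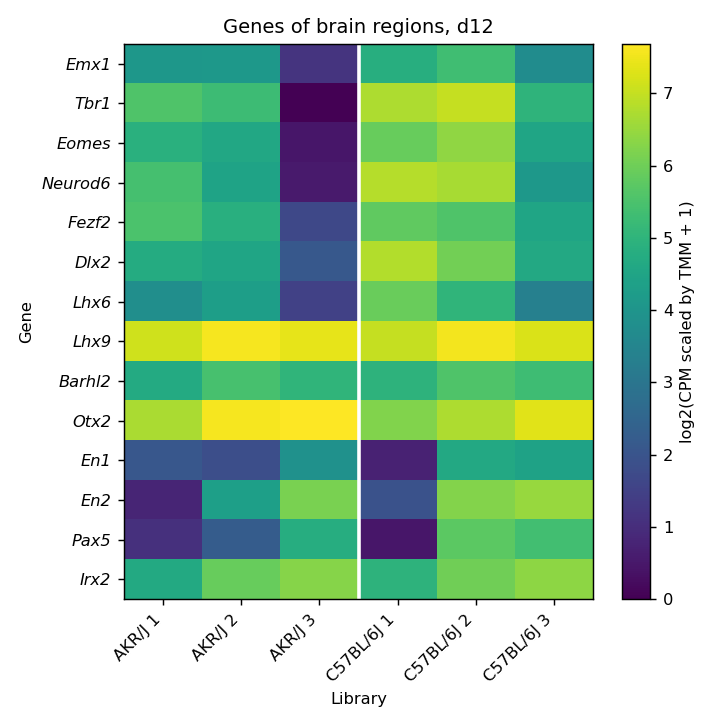
The colour of each cell is log2(CPM + 1) of a gene of a brain region (rows) in a library of d12 (columns), with the AKR/J libraries left of the white line. The telencephalic genes at the top, Emx1 to Lhx6, are lowest in AKR/J replicate 3, and the midbrain genes En2 and Pax5 are low in replicate 1 of both strains.

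Genes of the midbrain and the isthmus had another pattern. En2, a factor of midbrain and cerebellum, was at 0.723, 19.3 and 69.0 CPM in AKR/J and at 2.79, 75.1 and 90.0 CPM in C57BL/6J. Pax5 was at 1.10, 3.69 and 26.6 CPM against 0.380, 53.1 and 39.96 CPM. In both genes replicate 1 was the lowest library in each strain, and the strains overlapped. Of 17 forebrain genes tested, 3 were lower (Six3, Sp5 and Gbx2), and of 20 midbrain and hindbrain genes, 1 was lower, against 14.1% of all tested genes. None of the forebrain genes was called without AKR/J replicate 1, AKR/J replicate 3 or C57BL/6J replicate 1. None of 16 ventral genes, of which Shh had -0.08 ± 0.50, and none of 13 genes of monoamine and motor neurons passed edgeR's quasi-likelihood test, and 1 and 2 of them had an unadjusted p under 0.05. Within the neural tube, Hox genes mark the hindbrain behind its front end and the spinal cord. Of 29 Hox genes, 1 had enough reads to be tested, Hoxa3, and it did not pass (2.12 ± 0.92, edgeR adjusted p = 0.113). The Hox genes summed to 45.4 CPM, by library size alone, in AKR/J replicate 1, where every member had a read, and to 0.571 to 5.67 CPM in the other 5 libraries, where 11 to 22 members had none. AKR/J replicate 1 also held the largest shares of yolk sac and decidua transcripts, 0.133% and 0.0813% of its reads. The tissue that its Hox reads came from was not tested. How much of each brain region a library held was not measured, and its part in the neuronal results was not tested. Without AKR/J replicate 3, 1381 genes were called outside the sets kept apart, and without AKR/J replicate 1 there were 1284.

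Endothelial genes were lower in AKR/J in 7 of 14 members, against 14.1% of all tested genes, with none higher and a median of -0.93. Pecam1, the adhesion molecule CD31, was at 8.45, 6.42 and 9.27 CPM against 19.1, 24.6 and 17.9 CPM (log2 fold change -1.35 ± 0.25, edgeR adjusted p = 0.0115). Cldn5, the tight junction protein of the blood-brain barrier, had -1.39 ± 0.36, and Kdr, the main VEGF receptor, had -1.08 ± 0.35. The endothelial and the erythroid list thus moved in opposite directions. Without each of the other 5 libraries, 1 to 9 endothelial genes were lower.

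Of 14 genes of microglia and macrophages, 2 were higher, close to the 14.5% of all tested genes. Tyrobp, a signalling adaptor of myeloid cells, was at 24.3, 6.11 and 28.6 CPM against 1.84, 2.13 and 3.55 CPM (log2 fold change 2.97 ± 0.56, edgeR adjusted p = 0.0118), and Aif1 had 1.89 ± 0.45. The receptors Csf1r and Cx3cr1, which define microglia, had -0.76 and -0.94 and did not pass. The median of the list was 0.44, and -0.02 under library sizes alone. Of 14 genes of the choroid plexus and roof plate, 2 were lower, close to the 14.1% of all tested genes. Kcne2, a potassium channel subunit of the choroid plexus, was at 0.305, 0.491 and 0.937 CPM against 6.75, 8.94 and 2.15 CPM (-3.38 ± 0.64), and Clic6 had -1.92 ± 0.62. Ttr, transthyretin, which both the choroid plexus and the yolk sac make, overlapped between the strains, at 161, 37.96 and 13.3 CPM against 205, 205 and 66.8 CPM.

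The Cav1-null libraries, which this comparison did not use, gave a developmental direction for these genes. Of 2730 genes lower in AKR/J outside the sets kept apart and tested in both, 712 rose from d12 to d15 in Cav1-null mice, or 26.1%, against 11.5% of all 18390 genes tested in both. The opposite change, a fall, was found in 13.8% of them, against 12.7% of all. Of 2462 genes higher in AKR/J, 280 fell from d12 to d15, or 11.4% against 12.7%, and 5.32% rose against 11.5%. In the Cav1-null comparison itself, 23.4% of the tested genes were called. The share of lower genes that rose was 16.7% without C57BL/6J replicate 2, where 6 such genes were left.

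A position was computed for each library as the mean log2(CPM + 1) of the 300 genes with the largest rise minus that of the 300 with the largest fall from d12 to d15 in Cav1-null mice, set to 0 at the mean of Cav1-null d12 and to 1 at d15. The AKR/J libraries of d12 were at -0.63, -0.62 and -0.62. The C57BL/6J libraries were at -0.06, -0.05 and -0.59, so that replicate 3 lay beside AKR/J and the other pair beside the Cav1-null libraries of d12. The groups did not overlap, but the gap between the lowest C57BL/6J and the highest AKR/J library was far smaller than the range within C57BL/6J. On d15, AKR/J was at 0.34 to 0.51 and C57BL/6J at 0.52 to 0.71, and on d17 they were at 1.13 to 1.33 and at 1.25 to 1.45.

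**Figure D5:**
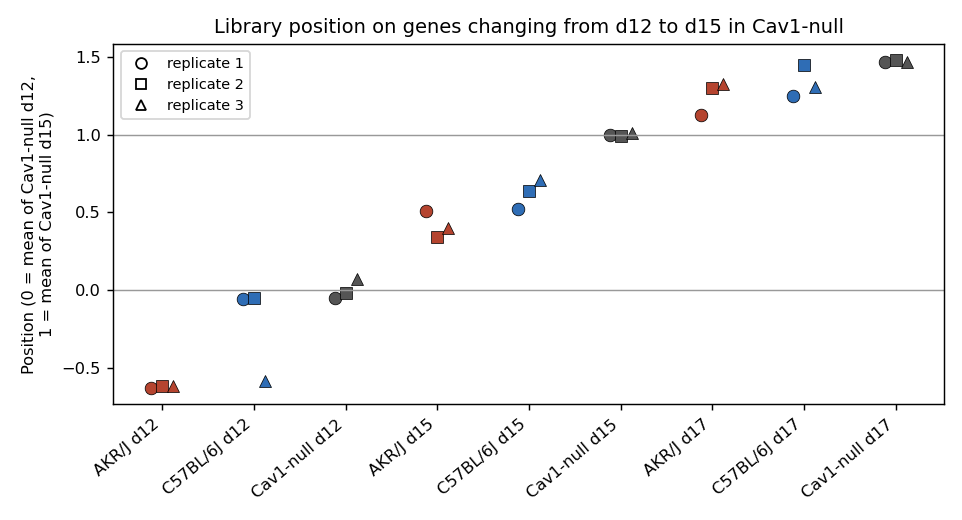
Each point is the position of a library on genes that change between d12 and d15 in Cav1-null mice (0 at the mean of Cav1-null d12 and 1 at d15), for the 9 groups of strain and day, with the replicate given by the marker shape. The 3 AKR/J libraries of d12 lie at -0.62 to -0.63, C57BL/6J replicate 3 at -0.59 and the other C57BL/6J libraries of d12 at -0.05 and -0.06.

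Of the 10 largest rises outside the sets kept apart, taken where the strains did not overlap and the mean level on the log2 CPM scale was 3 or more, 6 were pseudogenes. The 10 genes were Gm12191, Rpl34-ps1, Rps7-ps3, Nr1h5, Prap1, Gm28438, Gm7993, Hbb-bh0, Apoc1 and Ncf4. Hbb-bh0 is an unprocessed pseudogene between Hbb-bh1 and Hbb-y in the globin cluster, and was not a member of the globin list. It was at 28.7, 9.55 and 58.8 CPM against 0.732, 0.308 and 0.485 CPM, so that the genes outside the sets still hold transcripts of the globin cluster. Gm12191 was at 569, 116 and 447 CPM in AKR/J and at 0.542, 0.205 and 0.485 CPM in C57BL/6J (log2 fold change 9.84 ± 0.77, edgeR adjusted p = 0.00132). Gm7993 varied little within each strain, at 25.8, 25.98 and 25.9 CPM against 0.298, 0.180 and 0.350 CPM (6.54 ± 0.32, edgeR adjusted p = 0.000241). Among the protein-coding genes, Nr1h5, the nuclear receptor FXR-beta, was at 50.3, 62.1 and 35.5 CPM against 0.0542, 0 and 0.188 CPM (9.20 ± 0.64). Ncf4, a subunit of the phagocyte NADPH oxidase, was at 58.4, 12.4 and 86.6 CPM against 0.163, 0.308 and 2.26 CPM, highest in the library richest in globin. Apoc1, an apolipoprotein, and Prap1, a gene of uterus and gut epithelium, were highest in AKR/J replicate 1, at 54.1 and 60.7 CPM, and at 1.20 to 3.78 CPM in the other AKR/J libraries.

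Pseudogenes made up 8.97% of the higher genes, 0.549% of the lower genes and 4.36% of all tested genes, while 97.9% of the lower genes were protein coding. A processed pseudogene is a copy of a messenger RNA inserted elsewhere in the genome, and reads from its parent gene can match it. Of all stretches of 25 bases in Gm12191, 92.3% also occurred in transcripts of the ribosomal protein gene Rpl30, and 84.8% of those of Rpl34-ps1 in Rpl34. Hbb-bh0, which is not a processed copy, shared none with a protein-coding transcript. Rps7-ps3 (chrX:151692535-151693116, minus strand) was at 811, 194 and 607 CPM against 0.488, 0.591 and 0.942 CPM. Its parent Rps7, a gene of the small ribosomal subunit, was at 6058, 1404 and 4453 CPM against 495, 324 and 509 CPM (log2 fold change 3.17 ± 0.56, edgeR adjusted p = 0.0115). Of 6 relatives that were tested, 5 were higher in AKR/J too, with log2 fold changes of 1.64 for Sec61b, 1.75 for Rpl30, 1.90 for Rpl34, 2.30 for Rps3a1 and 3.17 for Rps7. The sixth, Odc1, which shares 59.3% of such stretches with Gm7993, was at 140, 170 and 154 CPM against 204, 214 and 239 CPM (-0.50 ± 0.19, edgeR adjusted p = 0.0802). The mitochondrial gene mt-Nd3, which shares 99.1% of such stretches with Gm28438, was at 0.244 CPM or less in each library and was not tested. Over 582 aligned bases, 3 differed between Rps7-ps3 and Rps7 in GRCm39, an identity of 99.5%. The stretch that holds all 3 is shown because it decides whether a read belongs to the gene or to its copy, with the differing bases in capitals. It is bases 1 to 150 of Rps7-ps3 and bases 108 to 257 of the Rps7 transcript, which begin at the start codon.
Rps7-ps3: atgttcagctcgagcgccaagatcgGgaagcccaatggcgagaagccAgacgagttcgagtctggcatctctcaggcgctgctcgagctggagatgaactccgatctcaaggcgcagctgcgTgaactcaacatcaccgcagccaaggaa
Rps7: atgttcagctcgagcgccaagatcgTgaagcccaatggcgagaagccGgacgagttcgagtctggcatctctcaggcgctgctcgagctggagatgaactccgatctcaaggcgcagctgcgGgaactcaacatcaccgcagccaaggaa
In the reads of AKR/J these bases were not examined, since the table holds counts only. How reads with several matches were counted is not given in the sources used here, so the levels of all these pseudogenes and their parents are uncertain.

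The 10 largest falls by the same rule were Ppp2r2c, Myo7a, Ablim3, ENSMUSG00000095041, Grin2b, Tmem130, Aldoc, Foxo6, Neurod2 and Eef1a2. Ppp2r2c, a brain subunit of protein phosphatase 2A, was at 2.89, 3.35 and 0.609 CPM against 37.2, 45.5 and 8.32 CPM (log2 fold change -3.71 ± 0.74, edgeR adjusted p = 0.0125). Ablim3, an actin-binding protein, was at 2.32, 2.27 and 3.37 CPM against 35.4, 44.8 and 9.24 CPM (-3.49 ± 0.55). Eef1a2, the elongation factor of neurons and muscle, was at 5.14, 4.30 and 3.51 CPM against 38.7, 58.9 and 12.3 CPM (-3.08 ± 0.52). Myo7a, the myosin of hair cells and retina, was tighter within C57BL/6J, at 3.85, 3.32 and 2.34 CPM against 37.7, 42.9 and 27.5 CPM (-3.50 ± 0.29, edgeR adjusted p = 0.00168).

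The genes that kept their call without any single library were few. The 15 higher genes held 10 pseudogenes and the protein-coding genes Nr1h5, Rsad2, Slc7a11 and Sycp1. The 7 lower genes were Myo7a, Rbpj, Srp54a, Hba-a2, Gpr137b-ps, 2410018L13Rik and ENSMUSG00000095041. Several of these are named here outside the rule, after their values were seen. Slc7a11, the cystine transporter, was at 81.4, 62.6 and 106 CPM in AKR/J against 11.1, 14.4 and 7.404 CPM (log2 fold change 2.92 ± 0.31, edgeR adjusted p = 0.00737). Rbpj, the transcription factor of Notch signalling, was at 27.7, 28.3 and 26.8 CPM against 89.4, 104 and 90.0 CPM (-1.77 ± 0.17, edgeR adjusted p = 0.00458). Srp54a, a subunit of the signal recognition particle with near-identical copies beside it, was at 0.305, 0.737 and 0.749 CPM against 9.68, 9.32 and 10.1 CPM (-4.01 ± 0.41).

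The same strain contrast was fitted on d15 and d17, in libraries that d12 did not use. On d15, 8089 of 19692 genes were called (41.1%), and on d17, 150 of 20207 (0.742%), so that the number of shared calls was limited by d17. Of the genes higher on d12 and tested on all days, 1680 of 2449 were higher on d15 too and 36 on d17. Of the lower genes, 2277 of 2726 were lower on d15 and 32 on d17. Over all genes tested on a day, 18.8% were higher and 22.3% lower on d15, and 0.381% and 0.361% on d17. On all 3 days, 34 genes were higher and 31 lower, with 15 pseudogenes among the higher and 6 among the lower ones, and 12 calls in all without C57BL/6J replicate 2. The 65 shared calls became 682 with DESeq2, 534 with the likelihood ratio test, 547 in a model of all 27 libraries, 501 without a filter on low counts, 366 with the replicate block and 27 at 10 reads or more in every library. By the rule, the higher ones named are Rps7-ps3, Gm35082, Gm28438, Gm7993, Hbb-bh1, Hbb-y, Gm10320 and Rps3a2, and the lower ones Gm49980, Hba-a2, Srp54a, Myo7a, ENSMUSG00000095041, Nwd1, Rec8 and Trpv2. Gm49980, a long noncoding RNA, had no read in AKR/J on d12 and 649, 472 and 200 reads in C57BL/6J, at least 313-fold lower against 3 reads over the 3 AKR/J libraries. Hbb-y had log2 fold changes of 3.81 ± 0.29 on d15 and 7.09 ± 0.75 on d17, against 5.90 on d12, and the difference of d12 from the later days was not called (0.36 ± 0.86, edgeR adjusted p = 0.83).

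An interaction term over the 18 libraries tested whether the strain difference on d12 departed from the mean of those on d15 and d17. It was called in 2615 of 22353 genes (11.7%), with AKR/J relatively higher on d12 in 4.93% and lower in 6.77%. The balance of directions turned with the scaling and the test. It was 1102 higher and 1513 lower here, 571 and 3581 with library sizes alone, 1229 and 912 with RLE size factors, 1218 and 804 with upper quartile factors, and 1861 and 1522 with DESeq2. Mapt was lower by 1.72 ± 0.49 on the log2 scale on d12 beyond the later days (edgeR adjusted p = 0.0334). For Dcx the term was -1.59 ± 0.22 (edgeR adjusted p = 0.00527), and its strain difference on d15 was -0.31 ± 0.12 and on d17 0.14 ± 0.15, neither called. For Grin2b and Grm5 the term was -2.10 and -3.10, while Tubb3 and Syp, at -0.90 and -0.64, were not called. Grin2b was lower on d15 as well, with -1.67 ± 0.10. Without single libraries of d12, the term was called in 350 to 5926 genes, the fewest without C57BL/6J replicate 2.

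Of 20 genes of hypoxia and glycolysis, 2 were higher and 2 lower, with a median of -0.10, against 14.5% and 14.1% of all tested genes. None of them was called without AKR/J replicate 1, and none was higher without C57BL/6J replicate 1 or under library sizes alone. Bnip3, a mitochondrial protein induced by hypoxia, had a log2 fold change of 1.37 ± 0.29 (edgeR adjusted p = 0.0139), and Ddit4, a stress inhibitor of mTOR, had -1.40 ± 0.28. Vegfa, Ldha and Pgk1 had 0.19, 0.38 and 0.14 and did not pass. Of 18 immediate early and stress genes tested, 2 were higher and 3 lower, close to the 28.6% called over all genes. No member of this list was called without AKR/J replicate 1, AKR/J replicate 3 or C57BL/6J replicate 1. None was higher under library sizes alone or with the length and GC trends removed. Fos was at 3.31, 1.47 and 1.499 CPM against 0.705, 0.565 and 0.162 CPM (2.13 ± 0.63, edgeR adjusted p = 0.0363), while its partner Jun was lower, with -0.89 ± 0.24.

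Of 15 tested genes that are known to vary between laboratory strains or belong to the major histocompatibility complex, 3 were higher and 1 lower in AKR/J, with a median of 0.87, and the number called was close to the 28.6% over all tested genes. None was called without AKR/J replicate 1 or 3. Glo1, glyoxalase 1, was at 131, 84.6 and 129 CPM against 71.1, 49.99 and 45.2 CPM (log2 fold change 1.05 ± 0.25, edgeR adjusted p = 0.0197), and had 0.96 ± 0.14 on d15. B2m, the light chain of class I molecules, was at 118, 29.4 and 82.7 CPM against 13.01, 15.3 and 31.5 CPM, and AKR/J replicate 2 lay within the C57BL/6J range. H2-T23, a nonclassical class I gene, had 1.29 ± 0.31, and the classical genes H2-K1 and H2-D1 had 0.04 and -0.95 without passing. Fv1, which restricts murine leukemia viruses, was lower, at 3.12, 7.31 and 4.50 CPM against 10.4, 12.0 and 10.3 CPM (-1.13 ± 0.34, edgeR adjusted p = 0.0392). Xist, which is expressed in females, was present at 2482 CPM or more in all 6 libraries, and Cav1 did not differ by more than its error (-0.15 ± 0.30, edgeR adjusted p = 0.731).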

How the data were processed

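RNA of whole fetal brain was sequenced by the authors. Per the labels and the study's methods, reads were checked with FastQC, adaptors were removed with cutadapt, low-quality bases with fastp (Phred 30, sliding window of 4 bases), and reads were mapped with STAR to GRCm39. The authors deposited whole, unnormalized read counts per gene for all 27 libraries. The counting tool, the strand setting and the treatment of reads with several matches are not given in the sources used here. A deposited table of splice junctions was not used.

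Samples were grouped by their labels. From the counts, AKR/J was compared with C57BL/6J on d12 with edgeR 4.0.16 in R 4.3.3 (filterByExpr, TMM scaling, quasi-likelihood test, Benjamini-Hochberg adjusted p under 0.05), using these 6 libraries alone. The standard error (SE) is the absolute log2 fold change divided by the square root of the F statistic. CPM in the text are scaled by TMM, and read shares are of all counted reads. The same test was fitted on d15, on d17, on Cav1-null d15 against d12, and as an interaction over 18 libraries. Depth was 28340089 to 35743241 reads, and counting error was small beside the biological coefficient of variation of 34.8%. Nothing says that the fetuses came from separate litters, so p-values measure the spread between these samples. On simulated counts of 18736 genes for d12, 42.9% of 191 changed genes were recovered. Of those changed 4-fold 72.1% were recovered and of those changed 2-fold 8.05%, and 7.87% of 89 calls were false. The simulation gave both strains the same mean for every other gene. It held no shift in composition, no trend of length or GC content and no library that stood apart. Its rates therefore need not hold for the real libraries.

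Named genes were members of 29 lists, the 10 largest rises and 10 largest falls outside the sets kept apart that did not overlap and had a mean log2 CPM of 3 or more, the 8 largest in each direction on all 3 days (mean log2 CPM of 2 or more), the 8 called genes with the highest level among those low in other libraries, and the checks Xist, Cav1, Sox2, Tubb3 and Pax6. Some genes of these lists and checks are not reported here. Members and lists were chosen with earlier results of these data known. Alternatives were DESeq2 1.42.0, the likelihood ratio test, other scalings and filters, a replicate block, a model of all 27 libraries and leaving out each library. Leaving out AKR/J replicate 1 and C57BL/6J replicate 3 together, and removing trends of length and GC content, were chosen after seeing the data. Tables were handled in Python 3.11.15 with pandas 2.3.3, numpy 2.4.6 and scipy 1.17.1, and figures were drawn with matplotlib 3.10.9.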

Additional observations from a re-analysis of the deposited data

Results flagged for a closer look

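For 2615 genes, and for the named genes given here, an interaction term called a difference between the strain effect on d12 and the mean of the strain effects on d15 and d17 (edgeR's quasi-likelihood test, adjusted p under 0.05). Each value is the log2 fold change of AKR/J over C57BL/6J on d12 minus that mean, so that a positive value means a relatively higher level in AKR/J on d12. No group held more than 3 libraries, so that no single library was tested for standing apart.

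Among blood genes, the term was 2.52 for Hba-a1, 3.60 for Hba-a2, 4.78 for Hbq1b, 2.76 for Alas2, 3.11 for Klf1 and 2.46 for Slc4a1. Hba-a2 was lower in AKR/J on all 3 days, and its positive value means that it was less far below C57BL/6J on d12. Among yolk sac and epithelial genes, it was 6.47 for Apoa1, 8.00 for Apob, 2.56 for Apom, 3.55 for Krt8, 3.01 for Krt18, 2.84 for Krt19 and 3.35 for Cdh1. The syncytin gene Syna, of trophoblast, had -1.52, and S100g, low in most other libraries, had 8.16. S100g was chosen by its low level in libraries that include those of d15 and d17, so that its term is a description.

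Among neuronal genes, the term was -1.72 for Mapt, -1.59 for Dcx, -1.45 for Dpysl3, -1.10 for Kif5c and -1.67 for Myt1l. In the synapse and inhibitory lists, it was -2.10 for Grin2b, -3.10 for Grm5, -1.16 for Syt1, -1.74 for Gria1 and -1.18 for Gad2. Among glial and progenitor genes, Aldoc had -2.52, Fabp7 1.59, Neurog2 -1.09, Neurod1 0.66, Ccne2 1.48 and Gins2 1.11. Of the remaining listed genes, Gbx2 had -1.89, Kcne2 -3.60, Tyrobp 2.02, Bnip3 1.05, H2-T23 1.21 and H2-D1 1.88.

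Among the largest rises and falls, the term was 5.28 for Gm12191, 7.52 for Rpl34-ps1, 2.23 for Rps7-ps3, 2.18 for its parent Rps7, 7.15 for Nr1h5, 9.29 for Prap1, 4.03 for Gm28438, 4.59 for Apoc1 and 4.59 for Ncf4. It was -2.90 for Ppp2r2c, -3.07 for Ablim3, -1.97 for Tmem130 and -2.16 for Eef1a2. Among genes that differed on all 3 days, Rps3a2 had 3.86, Srp54a -1.21, Nwd1 -2.33 and Trpv2 -1.53. Cyp4b1-ps2, low in most other libraries and chosen by the same rule as S100g, had 6.11, which is a description too. Of the genes named after their values were seen, Sycp1 had 9.07, Rsad2 3.70, Igtp 3.29, Irgm2 2.38 and Rbpj -0.69. Igtp and Irgm2 overlap in their coordinates, so their counts are uncertain.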

How the results depend on the processing

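Depth did not limit the genes named at higher levels, while genes near 1 CPM and the split between near-identical copies were uncertain. The 5529 calls ranged from 25 to 8009 without single libraries, the 5336 outside the sets kept apart from 24 to 7627, the 65 shared by all days from 12 to 68, and the 2615 interaction calls from 350 to 5926. The lowest count in each range was that without C57BL/6J replicate 2. The share of lower genes that rise in Cav1-null (26.1%) ranged from 16.7% to 33.8% without single libraries (11.4% to 11.5% of all genes), and that of higher genes that fall (11.4%) from 0% to 15.5% (12.4% to 12.5%). With both AKR/J replicate 1 and C57BL/6J replicate 3 left out, 3430 genes were called, 3268 outside the sets, and the shares were 37.7% and 15.6%, against 11.5% and 12.6% of all genes. With length and GC trends removed, these values were 3482, 3351, 31.6% and 14.8%, against 11.9% and 14.8% of all genes. A model of all 27 libraries gave 10960, 10491, 547 on all days, 4336 interaction calls, 12.8% and 6.40%, against 6.91% and 7.17% of all genes. DESeq2 gave 682 genes on all days and shares of 28.5% and 14.6%, against 12.8% and 15.2% of all genes, and the likelihood ratio test gave 534 genes. Library sizes alone gave 4152 interaction calls and 8.27% of higher genes falling (12.2% of all genes), and upper quartile factors gave 34.2% and 9.97% (13.4% and 11.0% of all genes), with a median of all genes of 0.12. Without a filter, 501 genes were shared by all days and the higher share was 13.1% (12.5% of all genes). At 10 reads or more in every library, 27 genes were shared and the shares were 28.8% and 12.8% (12.8% and 14.6% of all genes). A log2 fold change of at least 1 gave 1578 interaction calls, 12.5% and 3.61%, against 4.0% and 3.46% of all genes. The cause of these changes was not tested.

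Of 177 single-gene results, none reversed under an alternative. Without C57BL/6J replicate 2, 110 lost their call, and without AKR/J replicates 1 and 3 and C57BL/6J replicate 1, 58, 49 and 54 did. With length and GC trends removed, 22 lost it, and with both AKR/J replicate 1 and C57BL/6J replicate 3 left out, 18 did. DESeq2 gave a value for 168, of which 1 lost and 4 gained a call. Under library sizes alone, 13 lost and 5 gained one.

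Whether the replicate numbers pair the samples was not tested. Deviations from the group means correlated at 0.07, 0.31 and 0.26 between samples of the same number, and at -0.32 to 0.15 between the others. AKR/J replicates 2 and 3 correlated best with the C57BL/6J replicate of the same number, and AKR/J replicate 1 with C57BL/6J replicate 3. With the replicate block, 6566 genes were called, 6372 outside the sets, 366 on all days and 2058 by interaction, with shares of 19.7% and 9.73%, against 8.53% and 9.18% of all genes.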

Other observations

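Groups of genes outside the lists are given here as values, and they were chosen after their values were seen. Of 78 tested genes of cytoplasmic ribosomal proteins, 72 were higher in AKR/J on d12 and none lower, with a median log2 fold change of 2.79 against 0.02 over all tested genes. For each of these groups, the shares over all tested genes on d12 were 14.5% higher and 14.1% lower. All 10 tested genes of mitochondrial DNA were higher, with a median of 2.92. Of 77 nuclear genes of respiratory chain subunits, 58 were higher and 1 lower, with a median of 1.83. Without C57BL/6J replicate 2, none of these genes was called, while the medians were 2.60 for the ribosomal and 1.70 for the respiratory genes. With the trends of length and GC content removed, 67, 3 and 54 genes were higher, with medians of 2.5, 1.32 and 1.78. On d15, 69 of 77 ribosomal protein genes were higher and 3 lower (median 1.01), against 18.8% and 22.3% of all tested genes. On d17 none was higher and 1 lower (median 0.74), against 0.381% and 0.361%. The libraries with the largest shares of these transcripts, AKR/J replicates 1 and 3, also held the most globin. Their part in these values was not tested.

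Of 18 genes of the interferon response, 15 were tested and 4 were higher in AKR/J, against 14.5% of all tested genes. Rsad2 kept its call without each single library, and Igtp, Irgm2 and Ifit1 did not. Rsad2, the antiviral enzyme viperin, was at 5.94, 7.62 and 12.5 CPM against 0.108, 0.334 and 0.242 CPM (log2 fold change 5.22 ± 0.52, edgeR adjusted p = 0.00606). Igtp, an interferon-induced GTPase, was at 5.83, 4.12 and 7.82 CPM against 0.596, 0.591 and 0.700 CPM (3.22 ± 0.39, edgeR adjusted p = 0.0115). The groups did not overlap in either gene. Irgm2 and Ifit1 had 1.73 ± 0.43 and 2.45 ± 0.66. The other genes did not pass the test, among them Irf7 (1.63), Isg15 (1.46) and Oasl2 (-0.46). Foxj1, the transcription factor of motile cilia, was at 3.54, 4.73 and 5.11 CPM against 18, 24.98 and 17.0 CPM (-2.17 ± 0.27, edgeR adjusted p = 0.0115), and had -1.30 on d15 (edgeR adjusted p = 0.00229) and -1.30 on d17 (edgeR adjusted p = 0.115), where it did not pass.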
